A study of Mus musculus with 9 samples.

Results

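The genes described here encode the subunits of the mitochondrial respiratory chain and of ATP synthase that are carried in the nucleus. They were chosen by symbol, as the rows of the liver gene table that begin with Nduf and a subunit class letter with a number, with Sdha to Sdhd, with Uqcr, with Cox4 to Cox8 and an isoform letter, or with Atp5. After 6 rows whose symbols end in -ps were left out, 82 of the 49585 rows remained. By complex they are 37 genes of complex I, 4 of complex II, 8 of complex III, 16 of complex IV and 17 of complex V.

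RNA was sequenced from whole liver of male C57BL/6J mice aged 14 weeks, with 3 libraries in each of 3 groups. MG mice lived for about 35 days in microgravity on the International Space Station, AG mice lived there in a centrifuge at 77 rpm that gave 1 g, and both were killed 2 days after splashdown. GC mice were ground controls at 1 g, kept for 35 days in housing that copied the flight. The flight mice were bought from the Jackson Laboratory and the ground mice from Charles River Laboratories, so flight and supplier cannot be told apart in any comparison with GC.

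In the inner mitochondrial membrane, complexes I and II pass electrons from NADH and succinate to ubiquinone, complex III passes them on to cytochrome c, and complex IV passes them to oxygen. Complexes I, III and IV pump protons as they do so, and complex V, the ATP synthase, uses the returning protons to make ATP. All of these except complex II also hold subunits encoded in mitochondrial DNA, and in liver the chain carries much of the electron flow from fatty acid oxidation.

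The rule follows symbols, and a few of the names do not match what the proteins do. RefSeq now lists Atp5s and Atp5sl as Dmac2l and Dmac2, and they are not subunits of ATP synthase. Cox7a2l takes part in joining complexes into supercomplexes, and Ndufa4 has been assigned to complex IV in biochemical work. Cox4i1, which encodes a large nuclear subunit of complex IV, Cyc1, which encodes cytochrome c1 of complex III, and Ndufab1, an acyl carrier protein in complex I, fall outside the rule and are given separately.

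The libraries held 6194521 to 8957331 counts, and 11884 genes passed the filter on low counts. CPM express a gene's counts relative to the library's total, scaled to make libraries comparable. On the unscaled totals 3 reads equal 0.335 to 0.484 CPM. Hepatocyte markers were abundant in every library, with a summed level of 87780 to 121400 CPM over 8 genes. The 12 skeletal muscle markers summed to 238, 705 and 0.600 CPM in GC 1 to 3, to 1.02, 450 and 1.06 CPM in MG 1 to 3 and to 94.2, 0.622 and 15.5 CPM in AG 1 to 3, so GC 1, GC 2, MG 2 and AG 1 stood apart. The 10 macrophage markers summed to 1189 CPM in AG 1 and to between 219.8 and 298.4 CPM in the other libraries. Markers of further cell types were lower in MG than in GC without overlap of their sums. The 5 bile duct markers summed to 36.9, 47.1 and 37.2 CPM in GC 1 to 3 and to 28.3, 28.45 and 28.8 CPM in MG 1 to 3, the 4 pancreas markers to 9.62, 10.1 and 10.4 CPM and to 4.75, 3.525 and 5.94 CPM, and the 6 red cell markers to 219.4, 413 and 318 CPM and to 217, 186 and 214 CPM. In AG the sums ran from 38.6 to 56.3 CPM for bile duct, from 6.40 to 9.325 CPM for pancreas and from 303.5 to 468 CPM for red cell markers. In MG vs GC edgeR's quasi-likelihood test called 0 of 5 bile duct, 0 of 2 tested pancreas and 1 of 4 tested red cell markers lower (1, 2 and 2 at an unadjusted p below 0.05), and other tools were not counted for them. Over all genes tested, 0.841% were called lower and 6.60% were lower at that unadjusted p.

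Of the 82 genes, 77 had enough reads to be tested and 74 had a mean of 10 CPM or more. The 5 that were not tested were Cox6a2, Cox6b2, Cox7b2, Cox8c and Ndufa4l2, and Cox7b2 and Cox8c had no reads in any library. Together the 74 genes took 0.947% to 1.19% of a library's scaled total.

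Levels between genes were compared per length, as RPKM averaged over the 9 libraries. The highest was Cox6a1, the liver form of a small complex IV subunit, at 163.9 RPKM with a range of 139 to 192.6 over libraries. Next came Atp5b at 142 RPKM and Atp5a1 at 140 RPKM, the catalytic β and the α subunit of ATP synthase, whose ranges over libraries overlap each other and that of Cox6a1. Ndufb9 at 129.8 RPKM and Cox8a at 129 RPKM followed. Among the 74 genes the median was 39.7 RPKM and the lowest was Ndufb2 at 3.50 RPKM, whose value depends on the length of all exons annotated for it.

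Within complex I the median was 29.1 RPKM over 36 genes, with Ndufb9 and Ndufa6 (113.6 RPKM), both accessory subunits, at the top. In complex II the flavoprotein Sdha stood at 62.2 RPKM, the membrane anchor Sdhd at 55.5 RPKM, the iron-sulfur subunit Sdhb at 43.05 RPKM and the second anchor Sdhc at 20.6 RPKM. In complex III the median was 61.2 RPKM, from 33.4 RPKM for the core protein gene Uqcrc1 to 99.1 RPKM for Uqcr11, the smallest subunit, with Uqcr10 at 88.4 RPKM. In complex IV it was 59.4 RPKM over 10 genes and in complex V 46.2 RPKM over 16 genes.

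**Figure D1:**
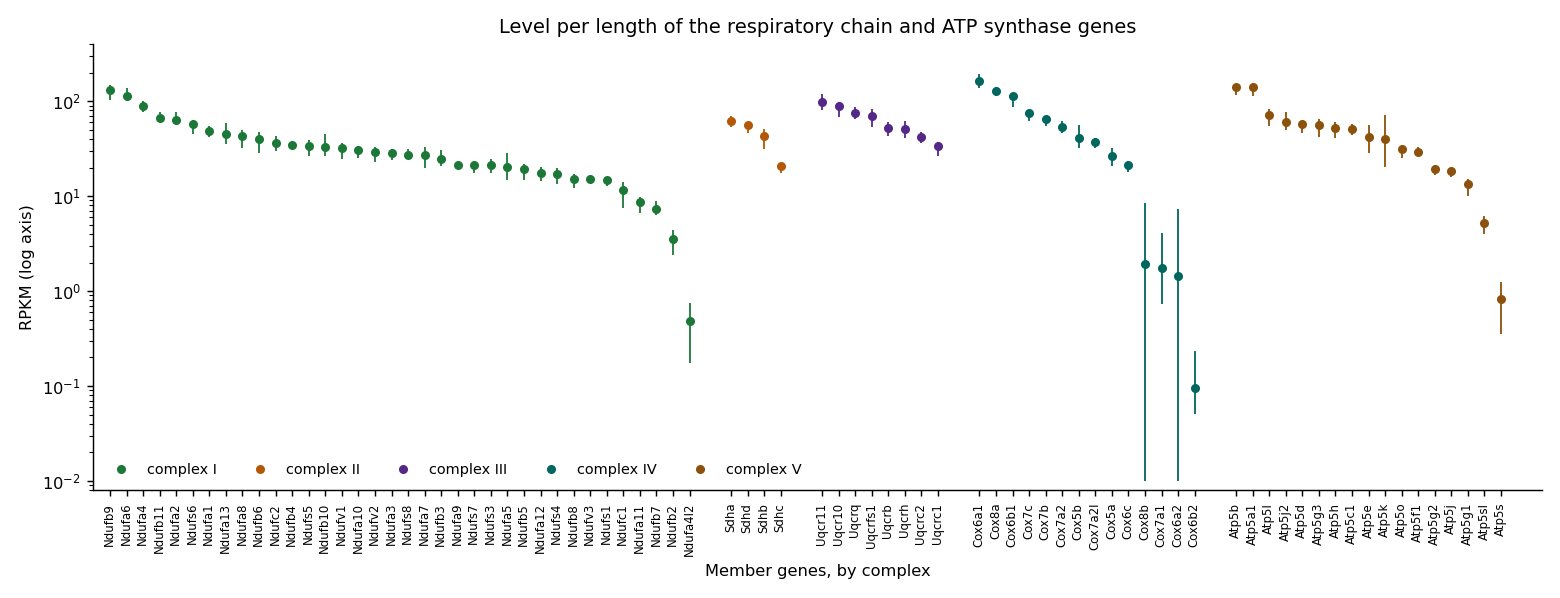
Level per length of the member genes with reads (RPKM, log axis), sorted within each complex, with 1 gene not shown. Points are means over the 9 libraries and lines run from the lowest to the highest library, with libraries at 0 drawn at the foot of the axis. Cox6a1 is highest at 163.9 RPKM, and Cox8b, Cox7a1 and Cox6a2 have the widest ranges.

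Subunit c, which forms the rotor ring of ATP synthase, is encoded by 3 genes for the same mature protein. Of their summed RPKM, Atp5g3 made up 62.8% (range over libraries 59.2% to 64.9%), Atp5g2 22.0% and Atp5g1 15.2%. Only 1.14% of the exon reads of Atp5g2 were unique to it, against 62.4% for Atp5g1 and 100% for Atp5g3, so the share of Atp5g2 is uncertain. In MG vs GC their log2 fold changes were -0.24 ± 0.12 (SE) for Atp5g3, -0.22 ± 0.11 for Atp5g2 and -0.09 ± 0.14 for Atp5g1, and edgeR's quasi-likelihood test called none of them (adjusted p = 0.435, 0.425 and 0.834).

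Some subunits of complex IV have a form used in heart and skeletal muscle beside the form used in liver. Cox6a2, the muscle partner of Cox6a1, had 9, 41 and 0 reads in GC 1 to 3, 0, 26 and 0 reads in MG 1 to 3 and 6, 0 and 0 reads in AG 1 to 3. All of its reads came from GC 1, GC 2, MG 2 and AG 1, the same libraries in which the skeletal muscle markers were high. Cox7a1, the muscle partner of Cox7a2, had 23, 29 and 7 reads in GC, 7, 24 and 10 reads in MG and 6, 7 and 12 reads in AG.

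Cox8b, the muscle partner of Cox8a, had 16, 40 and 0 reads in GC, 0, 19 and 10 reads in MG and 5, 1 and 0 reads in AG. Its 10 reads in MG 3 came with only 1.06 CPM of muscle markers. Of the cardiac markers Nppa was at 0 in all libraries, and the 3 cardiac markers together reached at most 0.152 CPM. The muscle forms made up at most 4.27% of the reads of a pair, reached by Cox8b against Cox8a in GC 2. The testis form Cox6b2 had 1 to 4 reads per library. Cox7a1 and Cox8b were tested and not called between MG and GC (edgeR's quasi-likelihood test, adjusted p = 0.665 and 0.728), with log2 fold changes of -0.69 ± 0.58 and -1.13 ± 1.13. The part of muscle RNA in these values was not tested.

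**Figure D2:**
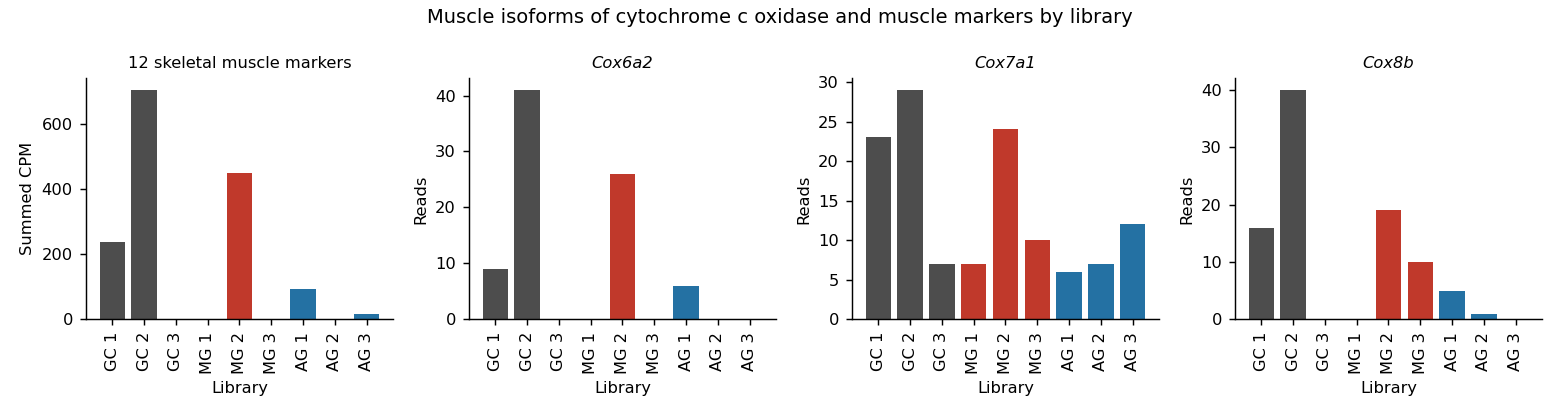
Summed level of 12 skeletal muscle markers (CPM) and reads of the muscle forms Cox6a2, Cox7a1 and Cox8b in each library. Bars are single libraries, grey for GC, red for MG and blue for AG. GC 2 is highest in all 4 panels, and Cox6a2 has 41 reads there and 26 in MG 2.

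In livers of mice from microgravity, 6 of the 77 tested genes were lower than on the ground and 0 were higher. They were Ndufa13, Ndufb10 and Ndufb3 of complex I, Uqcr11 of complex III, Cox5b of complex IV and Atp5k of complex V, and none was of complex II. Their log2 fold changes ran from -0.51 to -1.39. All 6 encode small accessory or structural subunits, while none of the 7 nuclear core subunits of complex I and none of the 5 subunits of the F1 part of ATP synthase was called. Over all 11884 genes tested, 0.841% were called lower and 0.547% higher by edgeR's quasi-likelihood test, with the threshold at 0.05 for the p adjusted by Benjamini and Hochberg, against 7.79% and 0 of the members. The bile duct, pancreas and red cell marker sums were also lower in MG than in GC, as given above, and their part in these values was not tested. In bulk liver, fewer cells of a type and less RNA per cell cannot be told apart, and since the labels tie no library to an animal, the p-values rest on a spread among libraries that may be technical.

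The promoters of these 6 genes are shown because they are the members that were lower together, as 170 bases before to 30 bases after the first transcribed base in RefSeq's annotation of GRCm38.p6, read on the gene's strand. Capitals mark matches, on either strand, to 4 motifs of factors known to act on such genes, NRF1 (GCGCNTGCG), the ETS factors that include GABP (CCGGAAG), YY1 (AAGATGGCG) and the estrogen-related receptors (TCAAGGTCA).
Ndufa13, chr8:69901991-69902190, minus strand: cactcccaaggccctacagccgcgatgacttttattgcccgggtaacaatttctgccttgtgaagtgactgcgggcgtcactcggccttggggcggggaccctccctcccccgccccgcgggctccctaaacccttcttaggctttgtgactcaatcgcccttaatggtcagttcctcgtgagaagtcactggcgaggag
Ndufb10, chr17:24724394-24724593, minus strand: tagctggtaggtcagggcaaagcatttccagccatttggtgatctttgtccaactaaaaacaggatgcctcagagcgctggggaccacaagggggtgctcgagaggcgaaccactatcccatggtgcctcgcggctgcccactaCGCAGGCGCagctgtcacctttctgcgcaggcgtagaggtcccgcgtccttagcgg
Ndufb3, chr1:58586227-58586426, plus strand: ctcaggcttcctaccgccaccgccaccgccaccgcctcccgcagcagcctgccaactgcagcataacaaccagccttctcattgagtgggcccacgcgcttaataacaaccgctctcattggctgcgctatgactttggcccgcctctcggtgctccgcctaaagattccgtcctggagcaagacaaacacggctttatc
Uqcr11, chr10:80406792-80406991, minus strand: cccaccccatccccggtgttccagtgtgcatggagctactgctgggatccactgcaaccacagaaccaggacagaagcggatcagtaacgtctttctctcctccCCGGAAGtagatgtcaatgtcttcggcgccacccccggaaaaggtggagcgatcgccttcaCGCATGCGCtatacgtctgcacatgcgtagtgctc
Cox5b, chr1:36691317-36691516, plus strand: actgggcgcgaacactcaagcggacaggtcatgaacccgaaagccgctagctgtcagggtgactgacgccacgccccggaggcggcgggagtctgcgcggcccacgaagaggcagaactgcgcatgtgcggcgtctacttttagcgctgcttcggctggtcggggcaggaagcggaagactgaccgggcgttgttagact
Atp5k, chr5:108434370-108434569, minus strand: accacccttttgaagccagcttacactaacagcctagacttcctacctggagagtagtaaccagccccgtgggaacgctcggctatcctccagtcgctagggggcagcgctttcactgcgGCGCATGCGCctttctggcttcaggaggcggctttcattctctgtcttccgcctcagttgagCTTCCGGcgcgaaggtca
The windows of Ndufb10, Uqcr11 and Atp5k held an NRF1 match, those of Uqcr11 and Atp5k held an ETS match, and the letters of the motifs were not in the windows of Ndufa13, Ndufb3 and Cox5b. A match is a description of the sequence, and binding was not measured.

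RefSeq promoter windows of 250 bases before to 50 after the start were matched for 69 of the 82 members. The NRF1 letters were in 24 of them (34.8%), against 7.12% of 27025 genes with a promoter and 15.4% of the tested genes. With 1 more C at the 3′ end of the motif they were in 17 members (24.6%), against 5.19% and 11.7%. The ETS letters were in 16 members (23.2%), against 9.93% and 20.1%, the YY1 letters in 8 (11.6%), against 1.64% and 3.72%, and those of the estrogen-related receptors in 2 (2.9%), against 0.466% and 0.349%. The median log2 fold change in MG vs GC was -0.19 for the 39 members with 1 or more of the motifs and -0.10 for the 28 tested members with none. The 2 sets span overlapping ranges, from -1.39 to 0.06 and from -1.13 to 0.25.

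Ndufa13 (ENSMUSG00000036199), an accessory subunit of complex I also known as GRIM-19, lies on chromosome 8 from 69894180 to 69902558. It measured 108, 105.5 and 106 CPM in GC 1 to 3, 65.35, 63.7 and 74.35 CPM in MG 1 to 3 and 85.7, 76.8 and 81.2 CPM in AG 1 to 3. The 3 groups did not overlap, with AG between MG and GC. The mean was 67.8 ± 5.74 CPM in MG (SD, n = 3) against 107 ± 1.32 CPM in GC (SD, n = 3), and the log2 fold change was -0.65 ± 0.09 (edgeR's quasi-likelihood test, adjusted p = 0.00957). The annotation places Yjefn3 on the same strand and Tssk6 on the opposite strand over Ndufa13, 72.1% of its exon reads were unique, and its value is uncertain to that extent.

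Ndufb10 (ENSMUSG00000040048), an accessory subunit of the membrane arm of complex I, lies on chromosome 17 from 24722060 to 24724478. It measured 103, 113 and 98.3 CPM in GC, 65.9, 59.9 and 67.75 CPM in MG and 80.8, 69.5 and 75.5 CPM in AG. MG lay below AG and AG below GC without overlap. The log2 fold change of MG vs GC was -0.70 ± 0.10 (edgeR's quasi-likelihood test, adjusted p = 0.00976).

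Ndufb3 (ENSMUSG00000026032), another accessory subunit of the membrane arm, lies on chromosome 1 from 58586384 to 58595964. It measured 45.7, 47.1 and 48.5 CPM in GC, 33.7, 32.7 and 33.02 CPM in MG and 34.0, 37.4 and 34.2 CPM in AG. The MG libraries had an SD of 0.495 CPM, and the AG libraries lay just above them. The log2 fold change of MG vs GC was -0.51 ± 0.09 (edgeR's quasi-likelihood test, adjusted p = 0.0225).

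Uqcr11 (ENSMUSG00000020163), which encodes the smallest subunit of complex III, lies on chromosome 10 from 80402997 to 80406830. It measured 143, 151 and 154 CPM in GC, 111, 93.15 and 111 CPM in MG and 116, 119 and 134 CPM in AG. All MG libraries were below all AG libraries and these below all GC libraries. The log2 fold change of MG vs GC was -0.51 ± 0.10 (edgeR's quasi-likelihood test, adjusted p = 0.0356).

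Cox5b (ENSMUSG00000061518), a nuclear subunit on the matrix side of complex IV, lies on chromosome 1 from 36691484 to 36693681. It measured 127, 150.4 and 134 CPM in GC, 91.0, 85.2 and 87.3 CPM in MG and 106, 95.2 and 115 CPM in AG. The groups did not overlap. The log2 fold change of MG vs GC was -0.64 ± 0.10 (edgeR's quasi-likelihood test, adjusted p = 0.0153), and 69.5% of its exon reads were unique.

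Atp5k (ENSMUSG00000050856) encodes subunit e of ATP synthase, a small membrane subunit that takes part in forming dimers of the enzyme, and lies on chromosome 5 from 108433244 to 108434448. It measured 67.9, 92.5 and 73.1 CPM in GC, 37.1, 23.4 and 28.3 CPM in MG and 59.2, 31.2 and 40.3 CPM in AG. MG and GC did not overlap, while AG 2 lay inside the range of MG. The MG mean was 38.0% of the GC mean, the log2 fold change was -1.39 ± 0.23 (edgeR's quasi-likelihood test, adjusted p = 0.0201), and it was the lowest fold change among the 77 members.

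**Figure D3:**
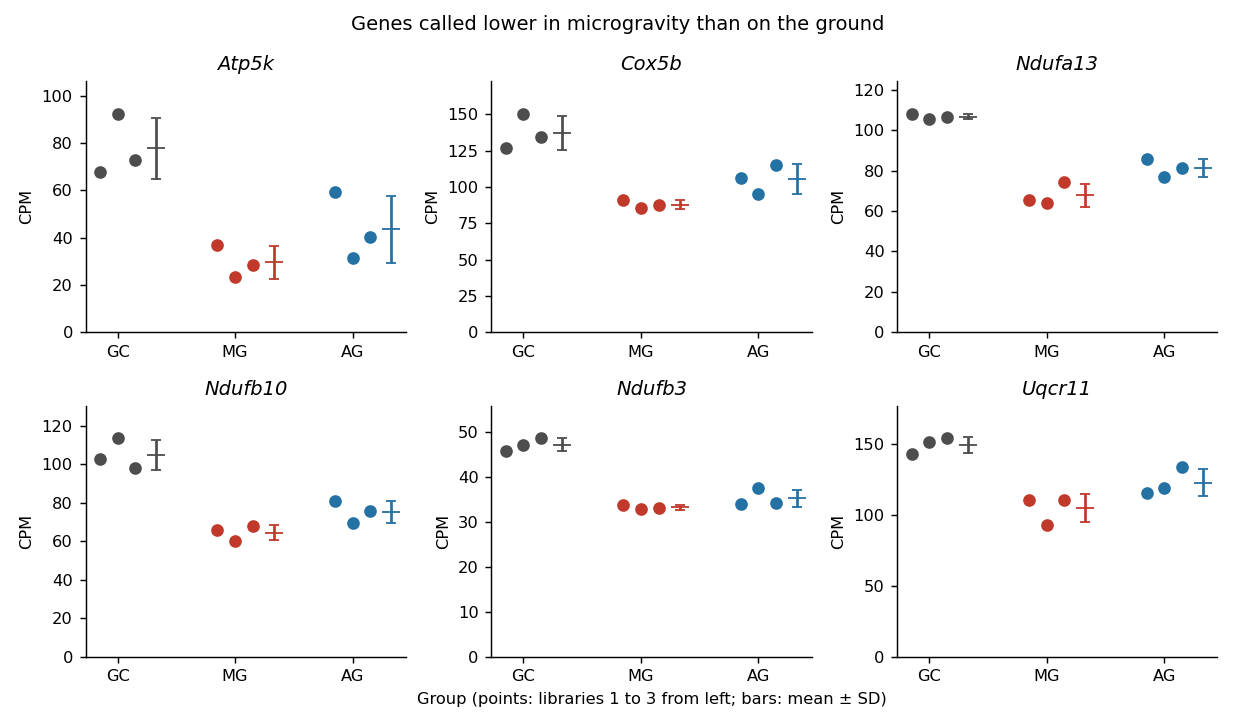
Level (CPM) of the 6 genes called lower in MG than in GC, by group. Points are libraries 1 to 3 from left to right, and bars are the mean ± SD (n = 3). The MG libraries lie below all GC libraries in every panel, and for Atp5k AG 2 at 31.2 CPM lies inside the range of MG.

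These calls depended on single libraries of GC and MG, and without AG 1, AG 2 or AG 3 all 6 were still called. Without GC 2, which had the most muscle RNA, 0 of the members were called, with log2 fold changes of -0.50 to -1.25. The adjusted p of the 6 genes ran from 0.0508 for Ndufa13 to 0.149 for Uqcr11 (edgeR's quasi-likelihood test). Over all 12082 genes tested 21 were called in that fit, against 100 lower and 65 higher with all libraries. Without MG 2 also 0 of the members were called, with adjusted p from 0.0564 (edgeR's quasi-likelihood test) and log2 fold changes of -0.44 to -1.255. In that fit 28 of all 12012 genes tested were called. Without GC 1 the count of members was 3, without GC 3 and without MG 3 it was 2 each, and without MG 1 it was 4. Over all genes the counts were 52, 51, 63 and 108 in the same order. Leaving out GC 1, GC 2 and MG 2 together leaves 1 GC library assumed to vary like the other groups. There the log2 fold changes of the 6 were -0.49 to -1.17 and the median over the members was -0.16.

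The genes nearest to the threshold on its other side were Ndufa5, an accessory subunit of the peripheral arm of complex I (log2 fold change -0.63 ± 0.15, adjusted p = 0.0672 in edgeR's quasi-likelihood test), Ndufb7, of the membrane arm (-0.38 ± 0.09, 0.0745), Atp5j2, the membrane subunit f of ATP synthase (-0.49 ± 0.12, 0.0858), and Uqcrh, the hinge protein of complex III (-0.41 ± 0.11, 0.127). Ndufa5 measured 46.6, 60.65 and 53.9 CPM in GC, 33.2, 33.5 and 37.0 CPM in MG and 45.0, 31.0 and 40.6 CPM in AG. Its MG values lay below its GC values, but its AG values spanned the range of MG. DESeq2 called these 4 genes as well, 10 members in all, among 390 genes called of 11884. The authors' deposited table marks 4 members between GC and MG, namely Atp5k, Cox5b, Ndufa13 and Ndufb10, of 226 genes.

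Among all 77 tested members, the 6 called genes included, 69 had a negative log2 fold change in MG vs GC, with a median of -0.16. Over all genes tested, 5804 of 11884 were negative and the median was 0.01. Before adjustment, 20 members (26.0%) were lower and 0 higher at p below 0.05, against 784 genes lower (6.60%) and 864 higher over all 11884. The MG libraries lay wholly below the GC libraries for 31 of 77 members, where the share over all genes was 11.3%, and wholly above for 1. That 1 was Ndufa7, an accessory subunit of complex I, with 76.0, 89.2 and 92.15 CPM in GC and 93.6, 101 and 112 CPM in MG (log2 fold change 0.25 ± 0.13, adjusted p = 0.437 in edgeR's quasi-likelihood test). The genes share libraries and their values are not independent of each other. The members also have short exons in total (median 1485 bases, and 990 for the 6 called, against 4060 over all genes tested), and with a correction of each library for length the median was -0.10 and Ndufb3 and Uqcr11 were no longer called (adjusted p = 0.0922 and 0.0677).

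**Figure D4:**
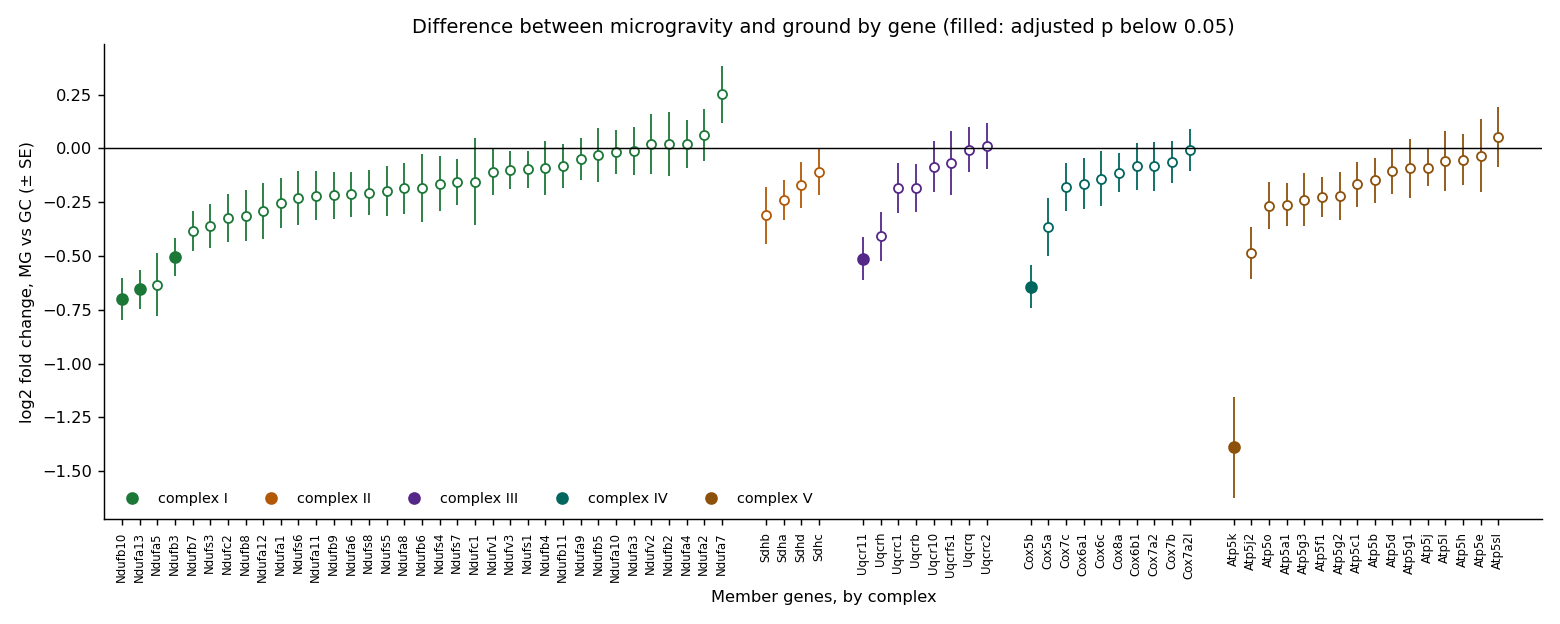
Log2 fold change of MG vs GC with its SE for the members with a mean of 10 CPM or more, sorted within each complex, with 1 gene not shown. Filled points were called by edgeR's quasi-likelihood test at an adjusted p below 0.05. Most points lie below 0, with Atp5k lowest at -1.39 and Ndufa7 highest at 0.25.

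By role, the 29 accessory subunits of complex I had a median log2 fold change of -0.19 with 3 called lower, and the 7 core subunits a median of -0.11 with 0 called. Among the core subunits Ndufs3, which carries no iron-sulfur cluster, was lowest (log2 fold change -0.36 ± 0.10, edgeR's quasi-likelihood test, adjusted p = 0.131). In complex II the 4 genes ran from -0.31 ± 0.13 for Sdhb to -0.11 ± 0.11 for Sdhc, with none called. Sdha measured 539, 525 and 542 CPM in GC, 490.1, 431 and 439 CPM in MG and 449, 503 and 507 CPM in AG, so MG and GC did not overlap, and its log2 fold change was -0.24 ± 0.09 (edgeR's quasi-likelihood test, adjusted p = 0.285). Sdhb, too, was lower in every MG library than in every GC library, while Sdhc and Sdhd overlapped.

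In complex III the core protein Uqcrc2 was highest at 0.01 ± 0.11, and Uqcr11 was the only one called. In complex IV, next to Cox5b, its matrix-side neighbour Cox5a had a log2 fold change of -0.36 ± 0.13 (edgeR's quasi-likelihood test, adjusted p = 0.254), and the other 8 genes with a mean of 10 CPM or more lay between -0.18 and -0.01. The highest of them was Cox7a2l at -0.01 ± 0.10. In ATP synthase the F1 subunits ran from -0.26 for Atp5a1 to -0.03 for Atp5e, the 4 stalk subunits from -0.27 for Atp5o to -0.05 for Atp5h, and the 6 genes of the membrane part from -1.39 for Atp5k to -0.06 for Atp5l. Atp5sl, counted with complex V by its symbol though not a subunit, was the highest there at 0.06 ± 0.14. Atp5b, the member with the most counts, was 1260, 1306 and 1282 CPM in GC and 1164, 1122 and 1184 CPM in MG, without overlap, a log2 fold change of -0.15 ± 0.10 (edgeR's quasi-likelihood test, adjusted p = 0.582).

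The counts of each complex were also summed per library. Over the 74 genes the sum was 10970, 11860 and 11690 CPM in GC, 9987, 9747 and 10830 CPM in MG and 9474, 10630 and 11310 CPM in AG. The MG sums lay below all GC sums, with MG 3 only just so, and the AG sums reached from below MG into the range of GC. The means were 11510 ± 475 CPM in GC, 10190 ± 571 CPM in MG and 10470 ± 930 CPM in AG (SD, n = 3 each), a difference from GC of -11.5% for MG and -9.02% for AG.

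By complex, the MG mean differed from GC by -9.40% for complex I, -14.5% for complex II, -9.66% for complex III, -11.4% for complex IV and -13.0% for complex V. For complexes II and V the MG sums all lay below the GC sums, and for complexes I, III and IV MG 3 lay inside the range of GC. The sums of complex II were 1015, 1063 and 1061 CPM in GC and 939, 829.9 and 914.5 CPM in MG. Those of complex V were 4086, 4383 and 4325 CPM in GC and 3726, 3575 and 3830 CPM in MG. GC 2 had the highest sum of the GC libraries for complexes I, II, IV and V and was level with GC 3 for complex III, and it also had the most muscle RNA, a tissue rich in these genes. The part of that RNA in the sums was not tested. Among the libraries with at most 1.06 CPM of muscle markers, the sum over the 74 genes was 11690 CPM in GC 3, the only such GC library, 9987 and 10830 CPM in MG 1 and MG 3, and 10630 CPM in AG 2.

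**Figure D5:**
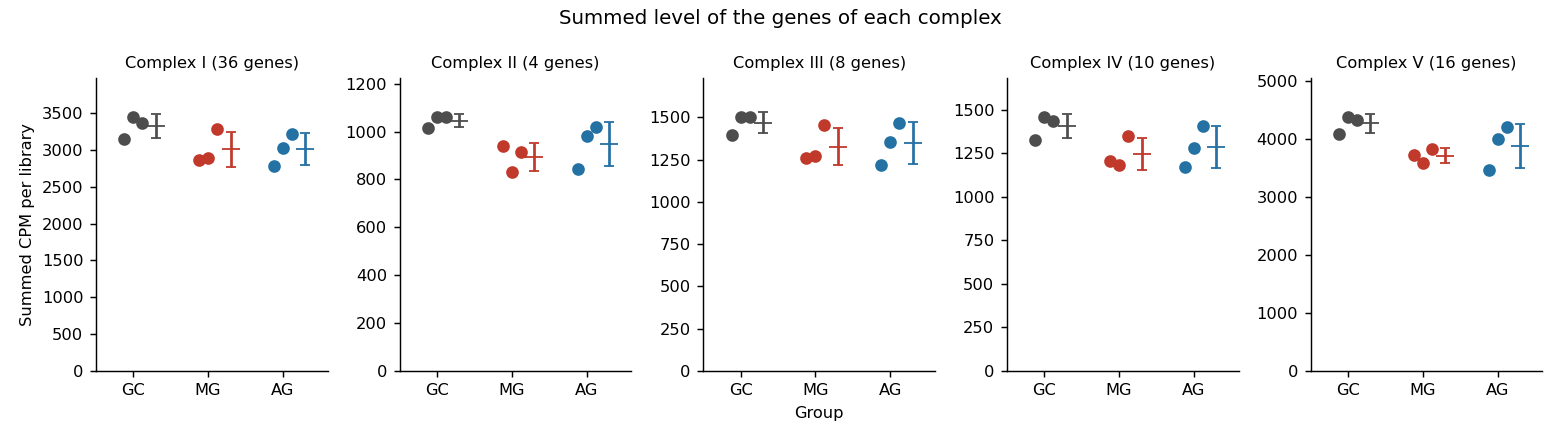
Summed level (CPM) of the genes of each complex with a mean of 10 CPM or more, by group. Points are libraries 1 to 3 from left to right, and bars are the mean ± SD (n = 3). For complexes II and V the MG and GC libraries are apart, and AG spreads over both, from 3456 to 4198 CPM for complex V.

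The comparison of AG with GC asks whether mice given 1 g in orbit differed from the ground. The same GC libraries serve here and in MG vs GC, so the values stand side by side only. EdgeR's quasi-likelihood test called 0 of the 77 members, as it called 0% of all genes. At an unadjusted p below 0.05 in that test, 12 members (15.6%) were lower and 0 higher, against 544 genes lower (4.58%) and 655 higher over all. Limma-voom called 0 members, and DESeq2 called 3 (Atp5k, Ndufa13 and Ndufb10), among 118 genes called of 11884. The log2 fold changes of the 6 genes named above were -0.39 ± 0.09 for Ndufa13, -0.48 ± 0.10 for Ndufb10, -0.42 ± 0.09 for Ndufb3, -0.28 ± 0.10 for Uqcr11, -0.38 ± 0.10 for Cox5b and -0.84 ± 0.23 for Atp5k, with adjusted p from 0.207 to 0.417. The AG libraries lay wholly below GC for all 6 of them and for 21 of 77 members, against 7.17% of all genes, and the median over the members was -0.15. AG 1, with its high macrophage markers, was the lowest AG library for 57 of the 74 members. Without AG 1 the median over the members was -0.08, with the length correction it was also -0.08, and 0 were called in both cases.

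The comparison of MG with AG holds flight and supplier constant and differs in gravity. EdgeR's quasi-likelihood test called 0 of the members and 0% of all genes, 6 members (7.79%) were lower and 0 higher at an unadjusted p below 0.05, and DESeq2 and limma-voom called 0 members. Over all genes 686 (5.77%) were lower and 479 higher at that p, so the share of lower members is near that of all genes. The 6 were Atp5g2, Atp5k, Cox5b, Ndufa13, Ndufb10 and Uqcr11, with log2 fold changes of -0.22 to -0.55. The MG libraries lay wholly below AG for 7 of 77 members, against 5.96% of all genes, and the median was -0.04. It was -0.10 without AG 1 and 0.02 without AG 3, so its sign depends on 1 library, and 0 were called in both cases. With the mean of both flight groups set against GC, 5 members were lower and 0 higher, against 0.648% lower among all genes. These were the genes called in MG vs GC other than Uqcr11 (adjusted p = 0.0569 in edgeR's quasi-likelihood test). All 6 flight libraries lay below all GC libraries for 16 members, against 3.55% of all genes.

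Reads in introns come from unspliced transcripts, which rRNA depletion keeps. On intron reads 64 members could be tested in MG vs GC and 0 were called by edgeR's quasi-likelihood test, against 0.602% of 10630 genes. At an unadjusted p below 0.05 in that test, 4 members were lower and 0 higher. The share of all genes at that p was not counted on introns, so these 4 cannot be set against it. No other tool was run on introns. The median log2 fold change was -0.11, with 48 of 64 negative, and on exon counts it was -0.16 for the same genes. Over all genes tested the intron median was -0.01. Of the 6 called genes, Ndufb10 had 7 to 18 intron reads per library in GC and 5 to 14 in MG (log2 fold change -1.09 ± 0.47), Ndufb3 -0.30 ± 0.23 and Uqcr11 -0.22 ± 0.33, with adjusted p = 0.441, 0.708 and 0.885. Atp5k and Cox5b had too few intron reads to be tested, and Ndufa13 is listed with 0.

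Neighbouring gene groups were counted in MG vs GC in the same fit. Of 12 tested subunits and electron carriers outside the rule 0 were called (3 lower and 0 higher at an unadjusted p below 0.05, edgeR's quasi-likelihood test), with Cox4i1 at 0.15 ± 0.13, Cyc1 at -0.40 ± 0.10 (adjusted p = 0.0813), Cycs, which encodes cytochrome c, at -0.49 ± 0.15 (0.157), Ndufab1 at -0.21 ± 0.13, the ATP synthase inhibitor Atpif1 at -0.03 ± 0.22 and Usmg5, a small ATP synthase subunit, at 0.19 ± 0.20. Cox4i2, the lung form of Cox4i1, had too few reads to be tested. Of 16 genes for complex I assembly and 33 for assembly of the other complexes 0 were called (2 and 3 lower, 0 higher unadjusted), with medians of -0.09 and -0.12. Of 16 citric acid cycle genes and 18 mitochondrial import genes 0 were called as well (3 lower and 0 higher unadjusted in each), with medians of -0.13 and -0.11. In the order given, 25%, 12.5%, 9.09%, 18.75% and 16.7% of these lists were lower at an unadjusted p below 0.05, against 6.60% of all genes tested. For these lists DESeq2 and limma-voom were not counted.

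Of the 13 protein genes of mitochondrial DNA, which supply the other subunits, 1 was lower (7.69%, against 0.841% of all genes) and 0 were higher (against 0.547%). This was mt-Nd4, a proton-pumping subunit of complex I, with 3130, 2957 and 2488 CPM in GC, 1915, 1365 and 1258 CPM in MG and 2408, 1713 and 2612 CPM in AG (log2 fold change of MG vs GC -0.92 ± 0.19, edgeR's quasi-likelihood test, adjusted p = 0.0471). All 13 had negative log2 fold changes, with a median of -0.42. MG lay wholly below GC for 8 (61.5%), against 11.3% of all genes. At an unadjusted p below 0.05 in the same test, 6 were lower (46.15%) and 0 higher, against 6.60% lower over all genes. Of the exon reads of mt-Nd4 42.8% were unique to it. For mt-Co2 the unique share was 0.113%, so its count is low (6.54 CPM in GC) at a level of 3969 RPKM, and the values of such genes are uncertain.

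Of 17 regulators of these genes 0 were called in MG vs GC (1 lower and 2 higher at an unadjusted p below 0.05, edgeR's quasi-likelihood test). Over all 11884 genes tested, 784 (6.60%) were lower and 864 higher at that unadjusted p. Ppargc1a, the coactivator PGC-1α, measured 9.66 ± 2.68 CPM in GC, 15.5 ± 3.11 CPM in MG and 15.5 ± 1.07 CPM in AG (SD, n = 3), a log2 fold change of 0.68 ± 0.21 in MG vs GC (adjusted p = 0.153). Ppargc1b had -0.32 ± 0.15, and the estrogen-related receptor gene Esrra -0.38 ± 0.14 (adjusted p = 0.268). The transcription factors Nrf1 (0.31 ± 0.15), Gabpa (-0.04 ± 0.14) and Yy1 (-0.00 ± 0.10), whose motifs were searched above, and the mitochondrial transcription factors Tfam (0.09 ± 0.14) and Tfb2m (0.01 ± 0.14) were not called.

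Nnt encodes the proton-driven transhydrogenase of the inner membrane, and C57BL/6J mice are known to carry a deletion in it. It was higher in MG than in GC, with 54.1, 52.5 and 57.0 CPM in GC, 91.2, 86.85 and 84.8 CPM in MG and 63.0, 71.2 and 70.6 CPM in AG, a log2 fold change of 0.68 ± 0.09 (edgeR's quasi-likelihood test, adjusted p = 0.00659). The groups did not overlap, and in AG vs GC the adjusted p was 0.286. The counts do not show which exons the reads came from, and the allele in each supplier's mice was not analysed here.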

How the data were processed

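The authors deposited 1 table with read counts per gene and library in exons, introns and junctions, RPKM and their own comparisons, per the file headers. The builds are GRCm38 and mm10, per the submitters' processing notes. Aligner, counting tool and use of strand were not given in the sources used here, so reads of overlapping genes may be shared. The expression values tested are whole counts and equal unique exon reads plus multiply mapped junction reads in all 49585 rows, of which 30904 had no reads. The RPKM deposited by the authors divide total exon reads by exon length. The adjusted p-values of the authors' deposited table served only to count marked genes. A further 90 columns of per-library values were not used. Table starts, counted from 0, are printed counted from 1.

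Genes were kept by filterByExpr of edgeR 4.0.16 (R 4.3.3), scaled by TMM and fitted by the quasi-likelihood model over all 9 libraries with 1 mean per group, with Benjamini-Hochberg adjustment over 11884 genes. The CPM given for genes and for sums of genes use totals scaled by TMM. The floor in reads was turned into CPM on unscaled totals. The test was checked on simulated counts. Of genes changed 1.5-fold it called 33% in MG vs GC, 37% in AG vs GC and 46% in MG vs AG. Of those changed 2-fold it called 91%, 91% and 88%. In the same order, 7 of 131, 8 of 136 and 12 of 146 calls were false. Alternatives were other scalings, filters, thresholds and read classes, a length correction, DESeq2 1.42.0, limma-voom 3.58.1, a replicate block and leaving out libraries. The labels do not say which animal a library came from. Floors in reads cover counting error at most, since the reads carry no molecular identifiers and can repeat a molecule. The SE of each fold change comes from the quasi-likelihood fit and holds the spread among libraries. Samples with the same number had correlations of -0.283 to 0.48, and samples with unlike numbers of -0.593 to 0.385.

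The members and lists were chosen with earlier results of these data known. The genes named are all members called, the 2 highest per length and the highest and lowest fold change in each complex, the tissue forms, subunit c, complex II and a fixed set of genes outside the rule. Promoter sequences are from RefSeq, build GRCm38.p6. The values of 1 member are not reported here singly, and it stays in the counts, medians and sums.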

Additional observations from a re-analysis of the deposited data

How the results depend on the processing

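In MG vs GC the number of members called lower was 6 under RLE, upper quartile or no scaling, a filter of CPM above 1, limma-voom, edgeR's robust setting, unique or total exon reads, totals without the 20 most abundant genes, and a replicate block. It was 7 without a filter, 8 with only the groups compared, 4 with the length correction, 10 with DESeq2, 2 at an adjusted p below 0.01 and 9 below 0.1. Without a filter, with only the groups compared, with the length correction and with DESeq2, 278, 375, 175 and 390 genes were called over all. In the settings named above with 6 members, 143 to 189 genes were called over all. Leaving out 1 library gave 0 to 7, with 0 without GC 2 and without MG 2, where 21 and 28 of all genes were called. Leaving out GC 1, GC 2 and MG 2 together, chosen after seeing the data, left 1 GC library, so no calls are given for it. The number called higher was 0 in every setting run. For AG vs GC the count was 0 except for 3 with DESeq2, which called 118 genes over all, and for MG vs AG it was 0 in every setting. For both flight groups against GC, a comparison with alternatives added after seeing the data, it was 5, and also 5 with limma-voom, edgeR's robust setting, only the groups compared, totals without the 20 most abundant genes and the replicate block. It was 6 under RLE, upper quartile or no scaling and with unique exon reads (121, 128, 130 and 122 genes called over all). It was 7 with no filter, CPM above 1 or total exon reads (215, 151 and 116 genes called over all). With the length correction it was 4, among 115 genes called over all, and with DESeq2 it was 9, among 322. In the settings named with 5 members, 100 to 130 genes were called over all. At an adjusted p below 0.01 the count of members was 0 and below 0.1 it was 8. Without 1 library it was 0 to 7, with 0 to 229 genes called over all. The median log2 fold change of the members in MG vs GC stayed negative, from -0.23 without MG 3 to -0.10 with the length correction, and it was -0.17 with the replicate block. The labels do not say that the numbers in the library names pair the samples. Introns gave 0 called members with either filter. The median of each complex stayed negative in every setting run, from -0.25 for complex IV without MG 3 to -0.05 for complex III.

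With 3 libraries per group the fit has 6 residual degrees of freedom, which limits the changes it can call. Members at or near 3 reads, such as Cox6b2, are too shallow to compare, and Cox6a2 had reads in only some of the libraries. The alternative for a table without counts was not run, since the table holds counts.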

Other observations

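Within groups, the members varied together by library. Of the 74 members with a mean of 10 CPM or more, MG 3 was the highest MG library for 55 and MG 2 the lowest for 38. AG 3 was the highest AG library for 50, and AG 1 was the lowest for 57.

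AG 1 was the highest AG library for 11 members: Atp5j2, Atp5k, Ndufa1, Ndufa13, Ndufa2, Ndufa5, Ndufb10, Ndufb11, Ndufb4, Ndufb7 and Ndufs8. Among them are 3 of the 6 genes called lower in MG than in GC, such as Atp5k, at 59.2 CPM in AG 1 against 31.2 and 40.3 CPM in AG 2 and AG 3. These genes were noticed after their values were seen, and the difference was not tested.

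The red cell gene Alas2, which encodes the first enzyme of heme synthesis in red cells, was lower in MG than in GC, with 46.5 ± 0.961 CPM against 87.9 ± 5.65 CPM (SD, n = 3) and 72.5 ± 16.7 CPM in AG (edgeR's quasi-likelihood test of MG vs GC, log2 fold change -0.92 ± 0.14, adjusted p = 0.0141). It was the only 1 of 4 tested red cell markers called.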
